A study of Rattus norvegicus with 6 samples.

Results

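The genes described here are 10 genes of protein folding in the endoplasmic reticulum (ER) and of its stress signalling, namely the chaperone genes Hspa5, Hsp90b1, Calr and Canx, the disulfide isomerase genes Pdia3, Pdia4 and Pdia6, and the transcription factor genes Xbp1, Atf6 and Creb3l2. They were found by gene symbol, 1 entry each, among 27217 genes of an RNA sequencing table. The table holds 3 libraries of RCS cells, a cell line from a rat chondrosarcoma that keeps many features of chondrocytes, and 3 libraries of neonatal rat rib tissue. The labels give no treatment, strain, sex or exact age, and the libraries are called biological replicates with no culture or animal named, so p-values measure the spread between these libraries only. RCS cells are a single tumour line, and a piece of rib can hold cartilage, bone, muscle, vessels and marrow besides chondrocytes.

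Secreted and membrane proteins fold in the ER, where BiP (encoded by Hspa5) and GRP94 (Hsp90b1) bind unfolded chains, calnexin and calreticulin hold glycoproteins by their sugars, and disulfide isomerases form and reshuffle disulfide bonds. When unfolded chains build up, the sensors IRE1, PERK and ATF6 are set free from BiP. IRE1 splices the Xbp1 transcript into the form that encodes the active factor, ATF6 is cut by the Golgi proteases encoded by Mbtps1 and Mbtps2, and both factors raise chaperone genes through ER stress elements in their promoters. CREB3L2, also called BBF2H7, is a relative of ATF6 that is known from mouse cartilage, where it drives the secretion of cartilage matrix. Chondrocytes secrete large amounts of collagen and proteoglycan, and so rely on this machinery.

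Most of the chaperone and isomerase genes were higher in RCS cells than in rib tissue, while Xbp1 was lower. By limma with Benjamini-Hochberg adjustment over all genes tested, Hspa5, Hsp90b1, Calr, Canx, Pdia4, Pdia6 and Atf6 rose (7 of 10), Xbp1 fell (1 of 10), and Pdia3 and Creb3l2 passed in neither direction (2 of 10). Over all 16809 genes tested, 32.9% were higher and 43.6% lower in RCS cells, 76.5% in either direction, beside 8 of the 10. All 10 genes passed the filter on low values. The groups did not overlap at the 7 higher genes or at Xbp1, where 34.4% of all tested genes stood above and 44.5% below without overlap. The median difference, RCS cells minus rib tissue on the scale log2(normalized count + 1), was 0.43 for the 10 genes and -0.15 for all genes tested. Summed, the 10 genes stood at 15286 to 18581 normalized counts in RCS libraries, against 12029 to 13045 in rib libraries. They took 0.360% to 0.411% of all normalized counts in RCS libraries, against 0.220% to 0.234% in rib libraries. The gap in share is wider than the gap in level because the library totals differ. All normalized counts summed to 4249660 to 4525340 in RCS libraries, against 5456460 to 5679280 in rib libraries.

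Levels are normalized counts, that is, reads divided by 1 factor per library and not by gene length, so they compare libraries for 1 gene and not genes with each other. Depth, estimated from the step between low values, ran to between 6000000 and 8520000 gene reads per RCS library, against 5320000 to 7490000 per rib library, and the lowest level among the 10 genes, Xbp1 in RCS cells replicate 3, rested on about 554 reads (a counting SD of 4.25%). All 8 cartilage markers were detected in every library of both groups, with 2 higher, 2 lower and 4 neither in RCS cells. They summed to 53664 to 74075 in the RCS libraries, against 99067 to 167173 in the rib libraries. Col2a1, the main cartilage collagen gene, stood at 10780.0 to 16801 normalized counts in RCS cells, against 55595 to 112920.0 in rib tissue. Most of the gap between these sums lay in Col2a1, and the sums of the other cartilage markers overlapped between the groups. In the lists of other cell types given here, most markers were higher in rib tissue. The 7 tested muscle genes were all lower in RCS cells and summed to 14.3 to 24.3 in the RCS libraries, against 19661 to 35326 in the rib libraries, with Myod1 and Myog listed at 0 in every RCS library. The 8 fibroblast and perichondrium genes were all lower and summed to 194 to 222 in the RCS libraries, against 43455 to 82309 in the rib libraries, with Dcn and Prrx1 at 0 in every RCS library. The 6 myeloid genes were all lower (26.9 to 39.3 in the RCS libraries, against 1023 to 1941 in the rib libraries, with Ptprc and Itgam at 0 in every RCS library), as were the 5 adipocyte genes (16.9 to 18.8 in the RCS libraries, against 1444 to 2887 in the rib libraries, with Lpl and Cd36 at 0). Of 6 endothelial genes 5 were lower (409 to 457 in the RCS libraries, against 2250.2 to 3493 in the rib libraries, with Cdh5, Kdr and Emcn at 0), and of 4 erythroid genes 3 (2.78 to 7.85 in the RCS libraries, against 229.6 to 618 in the rib libraries, with Hbb at 0). The exceptions, called in neither direction, were Vwf and the erythroid gene Klf1. Vwf made up most of the endothelial sum in the RCS libraries, at 452, 428 and 388 in RCS cells, against 601, 512 and 365 in ribs. The part of these other cell types in the differences below was not tested, and in bulk RNA fewer cells of a type and less RNA per cell cannot be told apart.

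The 2 soluble ER chaperone genes of the HSP70 and HSP90 families were both higher in RCS cells. Hspa5 (ENSRNOG00000018294), which encodes BiP, the main chaperone that binds unfolded chains and holds the stress sensors inactive, stood at 2623, 2185 and 2005 normalized counts in RCS cells replicates 1, 2 and 3, against 1506, 1432 and 1479 in rib tissue replicates 1, 2 and 3. The lowest RCS library lay above the highest rib library, and the rib libraries lay closer together than the RCS libraries. The difference was 0.62 (SE 0.11), or 1.53-fold, with a limma adjusted p of 0.000891. Hsp90b1 (ENSRNOG00000026963), which encodes GRP94, a chaperone of integrins, Toll-like receptors and insulin-like growth factors, stood at 2622, 2458 and 1853 normalized counts in RCS cells replicates 1, 2 and 3, against 1292, 1270.0 and 1304 in rib tissue replicates 1, 2 and 3. The groups were again apart, with RCS cells replicate 3 well below the other RCS libraries. The difference was 0.83 (SE 0.13), 1.77-fold, with a limma adjusted p of 0.000461. RefSeq lists the pseudogenes Hsp90b1-ps1, Hsp90b1-ps2 and Pdia4-ps1 and the gene Pdia6l1, and since the treatment of reads with several matches is not given, the levels of Hsp90b1, Pdia4 and Pdia6 are uncertain to that extent.

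Both lectin chaperone genes were higher in RCS cells. Calr (ENSRNOG00000003029), which encodes calreticulin, the soluble calcium-binding lectin, stood at 2614, 2509.5 and 2076 normalized counts in RCS cells replicates 1, 2 and 3, against 1678, 1495 and 1593 in rib tissue replicates 1, 2 and 3. Every RCS library was above every rib library. The difference was 0.59 (SE 0.11), 1.50-fold, with a limma adjusted p of 0.00108. Canx (ENSRNOG00000003343), which encodes calnexin, its membrane-bound relative, stood at 2164, 2037 and 1949.6 normalized counts in RCS cells replicates 1, 2 and 3, against 1657, 1696 and 1761 in rib tissue replicates 1, 2 and 3. The groups did not overlap, but the gap was small, 0.27 (SE 0.08) or 1.20-fold, with a limma adjusted p of 0.0141. This call was lost without RCS cells replicate 1 (0.23, limma adjusted p 0.0606) and without RCS cells replicate 2 (0.27, limma adjusted p 0.0597).

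Among the disulfide isomerases, Pdia4 and Pdia6 were higher in RCS cells and Pdia3 overlapped between the groups. Pdia4 (ENSRNOG00000006228), which encodes the isomerase ERp72, stood at 1764, 1690.4 and 1570.5 normalized counts in RCS cells replicates 1, 2 and 3, against 810.4, 843 and 873 in rib tissue replicates 1, 2 and 3. RCS levels were well above the rib levels in each library, with a difference of 0.99 (SE 0.08), 1.99-fold, and a limma adjusted p of 7.66e-06. Pdia6 (ENSRNOG00000050197), which encodes the BiP-associated isomerase P5, stood at 1502, 1499 and 1288 normalized counts in RCS cells replicates 1, 2 and 3, against 819, 786 and 818 in rib tissue replicates 1, 2 and 3. Its difference was 0.82 (SE 0.08), 1.76-fold, with a limma adjusted p of 3.92e-05. Pdia3 (ENSRNOG00000015018) encodes ERp57, the isomerase that works with calnexin and calreticulin on glycoproteins. It stood at 1233, 1161 and 994 normalized counts in RCS cells replicates 1, 2 and 3, against 1006, 1043 and 1104 in rib tissue replicates 1, 2 and 3. RCS cells replicate 3 was the lowest of the 6 libraries and RCS cells replicate 1 the highest, so the groups overlapped. The difference was 0.10 (SE 0.10), with a 95% interval of -0.12 to 0.32 and a limma adjusted p of 0.375.

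Of the 3 transcription factor genes, Xbp1 was lower and Atf6 higher in RCS cells, and Creb3l2 passed in neither direction. Xbp1 (ENSRNOG00000010298), the factor gene whose transcript IRE1 splices, stood at 470.0, 435 and 393 normalized counts in RCS cells replicates 1, 2 and 3, against 702, 573 and 645 in rib tissue replicates 1, 2 and 3. Each RCS library was below each rib library. The difference was -0.56 (SE 0.10), 1.48-fold higher in rib tissue, with a limma adjusted p of 0.00122. Values per gene do not tell spliced from unspliced Xbp1. Atf6 (ENSRNOG00000024632), the sensor that is cut to become a transcription factor, stood at 857, 851 and 862 normalized counts in RCS cells replicates 1, 2 and 3, against 702, 739 and 709 in rib tissue replicates 1, 2 and 3. The RCS libraries differed among themselves by little, and all lay above the rib libraries. The difference was small, 0.26 (SE 0.07) or 1.20-fold, with a limma adjusted p of 0.00762. Creb3l2 (ENSRNOG00000012826), the factor of matrix secretion in mouse cartilage, stood at 2732, 2617 and 2295 normalized counts in RCS cells replicates 1, 2 and 3, against 2355, 2152 and 2758 in rib tissue replicates 1, 2 and 3. The rib libraries spanned the whole range of the RCS libraries. The difference was 0.08 (SE 0.12), with a 95% interval of -0.19 to 0.35 and a limma adjusted p of 0.566. It turned to -0.0039 without rib tissue replicate 2.

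**Figure D1:**
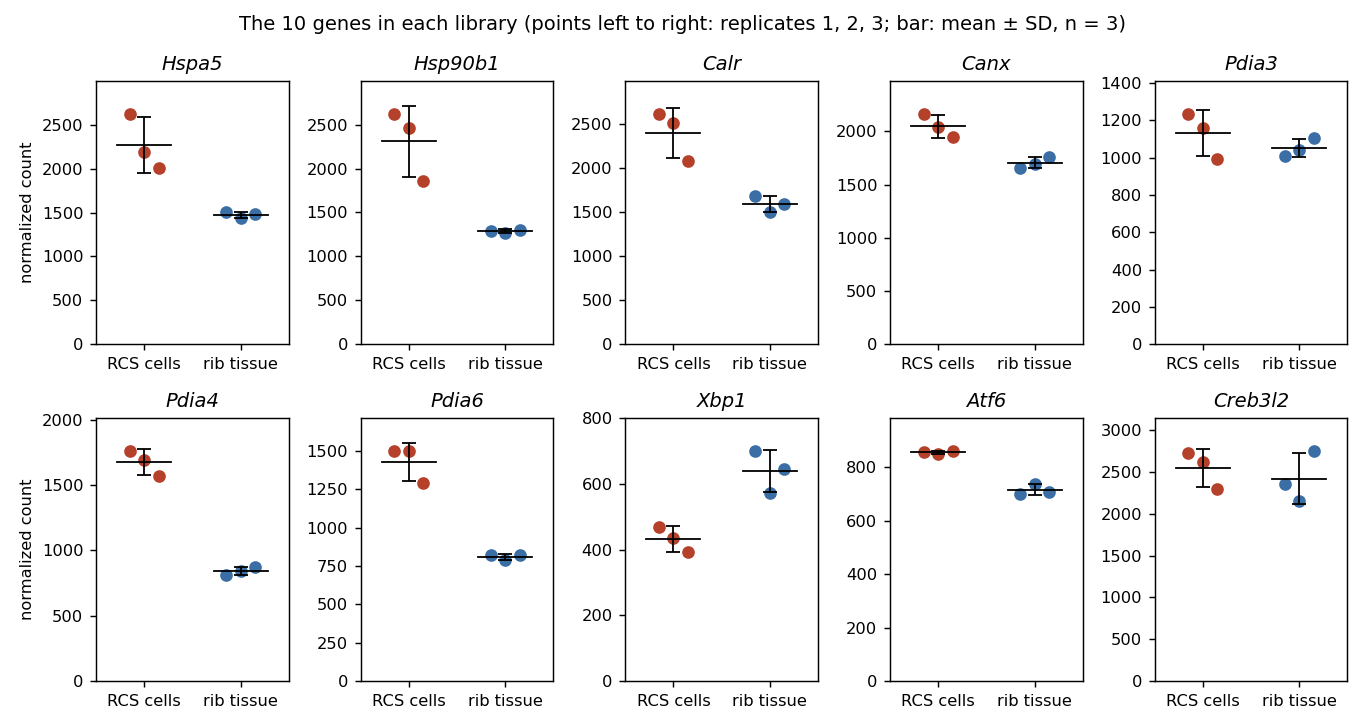
Normalized count (y axis, from 0) of each of the 10 genes in the 3 RCS libraries (red, left) and the 3 rib libraries (blue, right), with points for libraries and bars for mean ± SD, n = 3 each. Hspa5, Hsp90b1, Calr, Canx, Pdia4, Pdia6 and Atf6 lie higher in every RCS library, Xbp1 lies lower, and Pdia3 and Creb3l2 overlap.

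The RCS libraries kept nearly the same order at the 10 genes. RCS cells replicate 1 was the highest RCS library at 9 of the 10 genes and RCS cells replicate 3 the lowest at 9 of 10. Over all tested genes replicate 1 was counted highest at 43.4% and lowest at 41.2%, and replicate 3 lowest at 32.8%. Ties, such as genes at 0 in every RCS library, were counted for the first tied replicate. These shares over all genes are therefore only a rough comparison. Of the 10 genes, Atf6 was the exception, with replicate 3 highest and replicate 2 lowest. The order was not particular to the 10 genes. In RCS cells replicates 1, 2 and 3 the cartilage markers summed to 74075, 67030 and 53664 normalized counts. The folding genes described below summed to 19548, 19118 and 17370, the degradation genes to 13603, 13242 and 12453, and the response genes to 8004, 7661 and 7182. The totals of all normalized counts fell in this order too. The SD between RCS libraries on the log2 scale was 0.27 for Hsp90b1 and 0.20 for Hspa5, against 0.02 and 0.04 in rib tissue. The muscle markers summed to 35326, 29799.5 and 19661 in rib tissue replicates 1, 2 and 3, and the 10 genes to 12528, 12029 and 13045 normalized counts. Rib tissue replicate 3 was also lowest in the summed fibroblast, endothelial, myeloid, osteoblast, adipocyte and erythroid markers. A link between these sums was not tested.

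The size of each difference depended on how libraries were scaled. The median difference of all tested genes was -0.15 with the deposited scaling, 0.03 with cyclic loess, 0.13 with median scaling and 0.32 with quantile normalization. Hspa5, Hsp90b1, Calr, Canx, Pdia4, Pdia6 and Atf6 stayed higher and called under all of these. Pdia4 ran from 0.99 with the deposited scaling to 1.34 with quantile normalization, and Hspa5 from 0.62 to 1.15. With quantile normalization Hsp90b1 was at 1.34, Calr at 1.19, Canx at 0.80 and Atf6 at 0.41, while Atf6 was at 0.55 with median scaling. Xbp1 stayed lower, at -0.66 with cyclic loess, -0.48 with quantile normalization and -0.27 with median scaling, where the call was lost (limma adjusted p 0.0640). Creb3l2 was called higher with cyclic loess (0.36), median scaling (0.37) and quantile normalization (0.80). Pdia3 was called higher with median scaling (0.39) and with quantile normalization (0.33), where it lay at the median of all genes. Of all called genes, 43.0% were higher in RCS cells with the deposited scaling, against 53.3% with median scaling and 61.9% with quantile normalization.

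**Figure D2:**
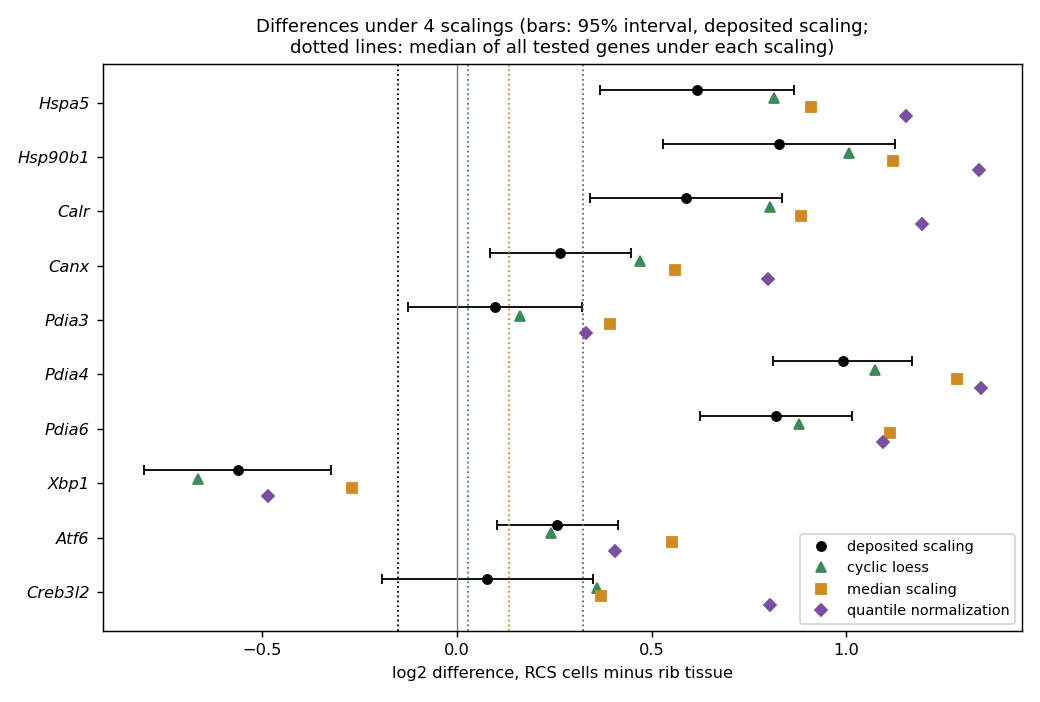
Log2 difference, RCS cells minus rib tissue (x axis), for the 10 genes (rows) under 4 scalings (symbols), with the 95% interval of the deposited scaling and dotted lines at the median of all tested genes under each scaling, from -0.15 to 0.32. Xbp1 is left of 0 under all 4, while Pdia3 and Creb3l2 are to the right of 0 with intervals that include 0 under the deposited scaling.

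A ratio between 2 genes within a library is the same under any single scaling factor, and gene length cancels when the ratio is set side by side between groups. The pairs were chosen after the values were seen and are given with no test. The log2 ratio of Hspa5 to Xbp1 was 2.48, 2.33 and 2.35 in RCS cells, against 1.10, 1.32 and 1.20 in rib tissue. The mean ratio was thus 2.27-fold higher in RCS cells, with no overlap between the groups. For Hsp90b1 over Xbp1 the log2 ratio was 2.48, 2.50 and 2.24 in RCS cells, against 0.88, 1.15 and 1.01 in rib tissue, 2.62-fold higher in RCS cells. The 2 isomerase genes Pdia4 and Pdia3 had a log2 ratio of 0.52, 0.54 and 0.66 in RCS cells, against -0.31, -0.31 and -0.34 in rib tissue, again with no overlap between the groups. The 2 factor genes Xbp1 and Atf6 had a log2 ratio of -0.87, -0.97 and -1.13 in RCS cells, against -0.00, -0.37 and -0.14 in rib tissue.

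**Figure D3:**
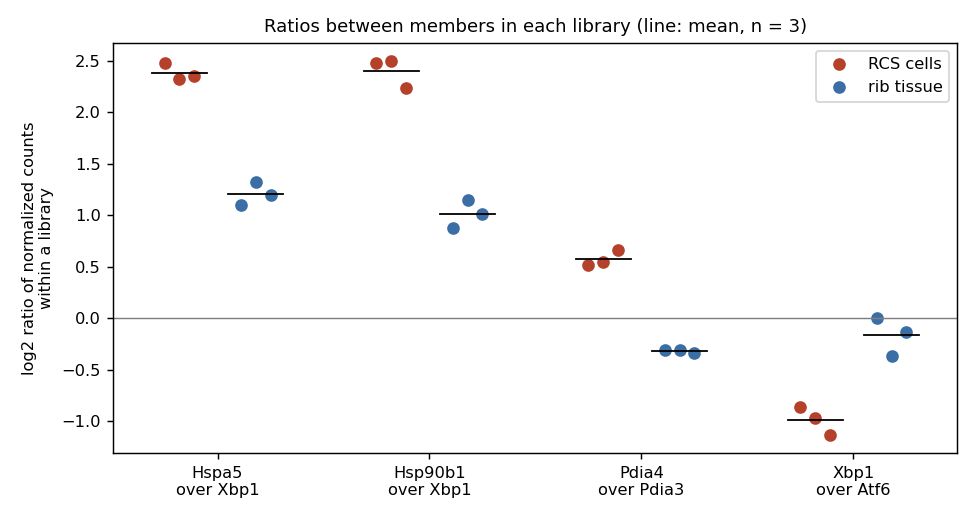
Log2 ratio of normalized counts of 2 genes within a library (y axis) for 4 pairs (x axis), RCS libraries in red on the left and rib libraries in blue on the right of each pair, with points for libraries and lines for means, n = 3 each. The groups stand apart at each of the 4 pairs, and Xbp1 over Atf6 is lower in RCS cells.

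Promoters were read for elements through which ATF6 and XBP1 are already known to raise chaperone genes. Finding them in chaperone genes is thus no independent result, and shares of all promoters are given only as description. RefSeq promoters on GRCr8, 250 bases before to 50 after the gene start, were at hand for 7 of the 10 genes, and not for Pdia3, Pdia6 and Atf6. The ER stress element, ERSE (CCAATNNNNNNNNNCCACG or, on the other strand, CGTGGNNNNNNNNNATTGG), to which ATF6 and XBP1 bind with the CCAAT factor NF-Y, was present in 5 of the 7, namely Hspa5, Hsp90b1, Calr, Canx and Xbp1. Of 33469 RefSeq promoters of the same length, 22 (0.0657%) held it. Neither Pdia4, with a log2 difference of 0.99, nor Creb3l2 held this exact form. ERSE-II (ATTGGNCCACG or CGTGGNCCAAT, in 0.0508% of promoters) and the core of the unfolded protein response element, UPRE (TGACGTGG or CCACGTCA, in 0.595%), were in none of the 7. ERSE and ERSE-II both hold CCACG, which by itself stood in 31.6% of promoters, as CCAAT did in 37.5%. A match is a description of the letters in this window. The 6 matches are shown with 5 flanking bases on each side, in the orientation of the element, with its 2 fixed parts in capitals.
Hspa5: gttcaCCAATcggaggcctCCACGacggg
Hsp90b1 distal: caaacCCAATcgaaaggagCCACGcttcg
Hsp90b1 proximal: acccaCCAATcgtgcctcaCCACGcactc
Calr: ctgggCCAATcagggtcgaCCACGcgttg
Canx: cttgtCCAATcatcacgctCCACGaagaa
Xbp1: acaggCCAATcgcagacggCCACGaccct
On GRCr8 they lie at chr3:38452968-38452996 on the plus strand (Hspa5), chr7:23012446-23012474 on the minus strand and chr7:23012342-23012370 on the plus strand (Hsp90b1), chr19:40213130-40213158 on the minus strand (Calr), chr10:35158064-35158092 on the minus strand (Canx) and chr14:84604553-84604581 on the plus strand (Xbp1). On the gene's strand the matches start 43 bases before the gene start in Hspa5, 176 and 72 in Hsp90b1, 232 in Calr, 230 in Canx and 65 in Xbp1.

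The whole windows of Hspa5 and Xbp1 are shown because these 2 genes hold the same element and moved in opposite directions, Hspa5 by 0.62 and Xbp1 by -0.56. They lie at chr3:38452766-38453065 and chr14:84604373-84604672 of GRCr8, both on the plus strand, with the fixed ERSE letters in capitals.
Hspa5 promoter: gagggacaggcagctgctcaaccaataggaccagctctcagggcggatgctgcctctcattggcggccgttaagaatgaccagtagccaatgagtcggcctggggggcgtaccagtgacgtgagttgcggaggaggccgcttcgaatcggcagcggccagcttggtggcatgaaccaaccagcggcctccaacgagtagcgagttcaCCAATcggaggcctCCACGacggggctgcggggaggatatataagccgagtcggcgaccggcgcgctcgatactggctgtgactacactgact
Xbp1 promoter: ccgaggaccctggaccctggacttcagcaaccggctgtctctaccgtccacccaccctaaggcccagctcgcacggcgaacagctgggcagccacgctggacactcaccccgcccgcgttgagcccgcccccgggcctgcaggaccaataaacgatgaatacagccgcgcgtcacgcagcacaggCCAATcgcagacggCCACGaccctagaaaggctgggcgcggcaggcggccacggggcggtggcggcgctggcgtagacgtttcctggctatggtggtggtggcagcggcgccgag
The genes with the element did not share a direction. The 22 promoter entries belong to 21 gene symbols, of which 9 are in the lists used here and 17 were tested. Of these 17, which include the 5 genes above, 8 were higher, 7 lower and 2 neither in RCS cells, beside 32.9% higher and 43.6% lower of all tested genes. Besides the 5 genes above, the element was found in the folding genes Dnajc3 (-0.35) and Ero1b (-1.75), the degradation gene Derl3 (-0.79) and the secreted ER protein gene Creld2 (0.72), the values in brackets being log2 differences.
Dnajc3: caaagCCAATcagcgccaaCCACGaccca
Ero1b: ggcggCCAATgaggcgggaCCACGagggc
Derl3: gctagCCAATaaggaagtcCCACGgtaga
Creld2: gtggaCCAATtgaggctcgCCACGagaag
These windows lie at chr15:102432529-102432557 on the plus strand, chr17:92941453-92941481 on the minus strand, chr20:12766596-12766624 on the plus strand and chr7:121789234-121789262 on the minus strand. The UPRE core was found in Hyou1, Dnajc10 and Vcp, higher in RCS cells, in Sec23a, lower, and in Ube2j1 and Ube2g2, called in neither direction. ERSE-II was found in the co-chaperone genes Hyou1 (at 2 places) and Dnajb11, both higher in RCS cells, and in Herpud1, lower in RCS cells. The UPRE core of Hyou1 overlaps its distal ERSE-II match, so the matches are not separate sites.
Hyou1 distal: tgcggATTGGcCCACGtcacg
Hyou1 proximal: tccccATTGGgCCACGtagaa
Dnajb11: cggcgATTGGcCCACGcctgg
Herpud1: cgctgATTGGgCCACGttggg
They lie at chr8:53602689-53602709 on the minus strand, chr8:53602789-53602809 on the minus strand, chr11:91672795-91672815 on the minus strand and chr19:10614816-10614836 on the minus strand, each shown as above with the fixed letters in capitals.

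Folding enzymes and co-chaperones that work with the 10 genes were more often higher than lower in RCS cells. Of 22 such genes, all tested, 11 rose (50%, beside 32.9% of all tested genes), 4 fell (18.2%, beside 43.6%) and 7 passed in neither direction. The median difference was 0.30 for the list and -0.15 for all genes. Sdf2l1, an ER protein that assists the BiP co-chaperone ERdj3, had the largest rise among genes of at least 50 normalized counts in the higher group. It stood at 204, 234 and 199 normalized counts in RCS cells, against 58.7, 28.7 and 35.5 in ribs, 5.30-fold higher. Dnajb11, which encodes ERdj3 itself, stood at 1137, 1113 and 1028 normalized counts in RCS cells, against 398, 419 and 414 in ribs, a difference of 1.41 (SE 0.07). Uggt1, the glycoprotein folding sensor that sends chains back to calnexin and calreticulin, stood at 2229, 2135 and 2026 normalized counts in RCS cells, against 856, 1028 and 1034 in ribs, a difference of 1.13 (SE 0.10). These 3 genes did not overlap between the groups, and the limma adjusted p was 3.62e-05, 8.26e-07 and 1.24e-05. The other genes that rose were Clgn (a calnexin relative best known from the testis), Hyou1 (which recharges BiP, 0.84), Dnajc10, Mogs, Dnajb9, P4hb, Erp29 and Erp44. The call of Erp44 was lost with cyclic loess (0.25), without any single RCS library (0.33 to 0.35) and without rib tissue replicate 2 (0.38). It was also lost with no filter and with no intensity trend.

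The genes of this list that fell were 2 oxidases, 1 isomerase and 1 co-chaperone. Ero1b, which passes oxidizing power to disulfide isomerases, stood at 45.8, 51.1 and 42.2 normalized counts in RCS cells, against 135, 197 and 149.6 in ribs, 3.37-fold higher in rib tissue (limma adjusted p 2.93e-05). Its relative Ero1a differed by -0.28 (SE 0.10). This call was lost with quantile normalization (-0.24), without any single RCS library (-0.32 to -0.23) and without rib tissue replicates 2 (-0.26) or 3 (-0.22). With median scaling the difference was 0.0092, and the call was also lost with no filter and with no intensity trend. Pdia5, an isomerase of the same family as Pdia4, stood at 52.8, 52.2 and 44.4 normalized counts in RCS cells, against 95.2, 86.4 and 88.8 in ribs, a difference of -0.85 (SE 0.15) that was -0.04 with quantile normalization, where it was not called. Dnajc3, a co-chaperone of BiP that also restrains PERK, stood at 357, 319.6 and 354 normalized counts in RCS cells, against 407, 411 and 497 in ribs, a difference of -0.35 (SE 0.10) that was not called with median scaling (-0.05) or without RCS cells replicate 2 (-0.29). The count of genes that fell was 2 without RCS cells replicate 2, where 6856 of all 16809 tested genes fell. Pdia4 and Pdia5 thus moved in opposite directions with the deposited scaling, and both isomerase genes had no overlap between the groups.

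Genes of ER-associated degradation, which takes misfolded chains out to the proteasome, rose at a share close to that of all genes and fell at a smaller share. Of 19, 6 rose (31.6%, beside 32.9% of all tested genes), 4 fell (21.1%, beside 43.6%) and 9 passed in neither direction, with a median difference of -0.01. Edem2, which trims mannose from misfolded glycoproteins, stood at 352, 352 and 354 normalized counts in RCS cells, against 149.9, 178 and 159 in ribs, a difference of 1.12 (SE 0.09). Ufd1, a cofactor of the segregase p97, stood at 725, 672 and 657 normalized counts in RCS cells, against 328, 334 and 367 in ribs, 1.99-fold higher in RCS cells, and the lectin gene Os9 differed by 0.66 (SE 0.12). The limma adjusted p was 1.08e-05, 9.8e-06 and 0.00109. Derl1, Derl2 and Vcp (p97) were the other genes that rose. On the lower side, Sel1l, the adaptor of the HRD1 ubiquitin ligase, stood at 695, 659 and 608 normalized counts in RCS cells, against 882, 832 and 856 in ribs, a difference of -0.39 (SE 0.08). The lectin gene Erlec1 fell as well, with a difference of -0.37 (SE 0.10). So did Herpud1, which organizes the ligase complex, with -0.35 (SE 0.07). These 3 calls were lost with median scaling, at -0.10, -0.08 and -0.06. Derl3, at under 50 normalized counts in every library, was the other gene that fell, with a difference of -0.79. Its call was lost with median scaling (-0.51), with no filter, without RCS cells replicates 2 (-0.63) or 3 (-0.81) and without rib tissue replicates 2 (-0.82) or 3 (-0.61). Its direction turned with cyclic loess (0.31) and with quantile normalization (1.01), where it was called higher in RCS cells.

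The list of sensors, proteases, factors and target genes was called in each direction at shares near those of all genes. Of 19 genes, 7 rose (36.8%, beside 32.9%), 7 fell (36.8%, beside 43.6%) and 5 passed in neither direction, with a median difference of 0.01. Among the sensors, Ern1, which encodes IRE1, stood at 425, 432 and 404 normalized counts in RCS cells, against 407, 382 and 469 in ribs. The groups overlapped, and the difference of 0.01 (SE 0.09) turned negative with cyclic loess (-0.13) and was called higher with median scaling (0.30). Eif2ak3, which encodes PERK, stood at 654, 661 and 678 normalized counts in RCS cells, against 749.7, 768 and 1017 in ribs. It fell by 0.33 on the log2 scale with a limma adjusted p of 0.0328, a call lost with quantile normalization (-0.20), with median scaling (-0.04) and without RCS cells replicate 1 (-0.32), 2 (-0.33) or 3 (-0.35). Rib tissue replicate 3 was the highest library, and without it the difference was -0.19. Atf6b, the close relative of Atf6, stood at 554, 525 and 409 normalized counts in RCS cells, against 375, 294 and 305 in ribs, 1.52-fold higher in RCS cells (limma adjusted p 0.00425).

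Of the protease genes whose products cut ATF6 and CREB3L2, Mbtps1 was lower in RCS cells and Mbtps2 passed in neither direction. Mbtps1, the site-1 protease gene, stood at 825, 834 and 747 normalized counts in RCS cells, against 1359, 1216 and 1346 in ribs. It was 1.63-fold higher in rib tissue, with a limma adjusted p of 8.48e-05. Mbtps2, the site-2 protease gene, stood at 88.1, 79.2 and 60.3 normalized counts in RCS cells, against 61.2, 76.4 and 105 in ribs. The groups overlapped, and the difference of -0.07 (SE 0.23) turned positive with median scaling (0.22), quantile normalization (0.70), with array weights, or when leaving out RCS cells replicate 3 or rib tissue replicate 3. Of the CREB3 family, Creb3 was higher in RCS cells, with a difference of 0.42 (SE 0.07), and Creb3l1 and Creb3l4 were lower. Creb3l4 was listed at 0 in every RCS library, against 1.89 to 4.36 normalized counts in the rib libraries, and at these low levels its direction turned with cyclic loess (0.56) and quantile normalization (0.15). Creb3l3, at 1.62, 4.67 and 1.42 normalized counts in RCS cells, against 0, 3.08 and 0 in ribs, overlapped and passed in neither direction, but was called higher with cyclic loess (3.52), with quantile normalization (2.62) and without rib tissue replicate 2 (1.72). Creb3l1, which encodes OASIS, a factor of collagen secretion in mouse bone, stood at 56.1, 49.1 and 34.4 normalized counts in RCS cells, against 747, 529.8 and 376 in ribs, 11.4-fold higher in rib tissue (limma adjusted p 6.12e-06). It was highest in rib tissue replicate 1 and lowest in replicate 3, as was the bone and fibroblast collagen gene Col1a1, at 43561, 24463 and 19017 in rib tissue replicates 1, 2 and 3. Of the other fibroblast and perichondrium genes, Col1a2, Col3a1 and Pdgfra had this order too. Dcn, Postn and Prrx1 were instead highest in rib tissue replicate 2, and Lum in replicate 3. The 6 osteoblast markers, 4 of them lower in RCS cells, summed to 1035 to 1187 in the RCS libraries, against 1155 to 3547 in the rib libraries, with Dmp1 listed at 0 in every RCS library. Alpl (677 to 791) and Sp7 (349 to 387), called in neither direction, made up most of the sums in the RCS libraries. The part of bone and fibroblast cells in the difference of Creb3l1 was not tested.

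Atf4, Ddit3 and Trib3 of the PERK branch, and the target genes Manf and Creld2, were higher in RCS cells. Ddit3, which encodes CHOP, the factor linked to death under lasting stress, stood at 208, 214 and 231 normalized counts in RCS cells, against 91.2, 91.1 and 77.1 in ribs, 2.50-fold higher (limma adjusted p 1.42e-05). Atf4, the factor above it, stood at 996, 941 and 907 normalized counts in RCS cells, against 681, 649 and 723 in ribs, a difference of 0.47 (SE 0.08). Trib3, a target of both, stood at 61.3, 48.5 and 53.7 normalized counts in RCS cells, against 6.82, 10.8 and 3.42 in ribs, and the secreted ER stress protein gene Manf at 550.0, 528 and 522 normalized counts in RCS cells, against 311, 305 and 331 in ribs. All 4 were without overlap between the groups, and the limma adjusted p of Trib3, Manf and Atf4 was 0.000125, 3.01e-05 and 0.000640. Ppp1r15a, another gene of that branch, which encodes the phosphatase subunit GADD34, fell, with a difference of -0.39 (SE 0.14). This call was lost with median scaling (-0.09), with quantile normalization (-0.33), without RCS cells replicates 1 (-0.41) or 2 (-0.31) and without rib tissue replicates 1 (-0.27) or 2 (-0.37). Fits with no filter and with no intensity trend lost it too. The transport coat genes Sec24d and Sec23a, of which Sec23a is a known target of CREB3L2 in mouse chondrocytes, were lower in RCS cells. Sec24d stood at 711, 548 and 500.5 normalized counts in RCS cells, against 1169, 1033 and 1187 in ribs, a difference of -0.96 (SE 0.13), and Sec23a differed by -0.60 (SE 0.08), beside 0.08 for Creb3l2 itself.

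**Figure D4:**
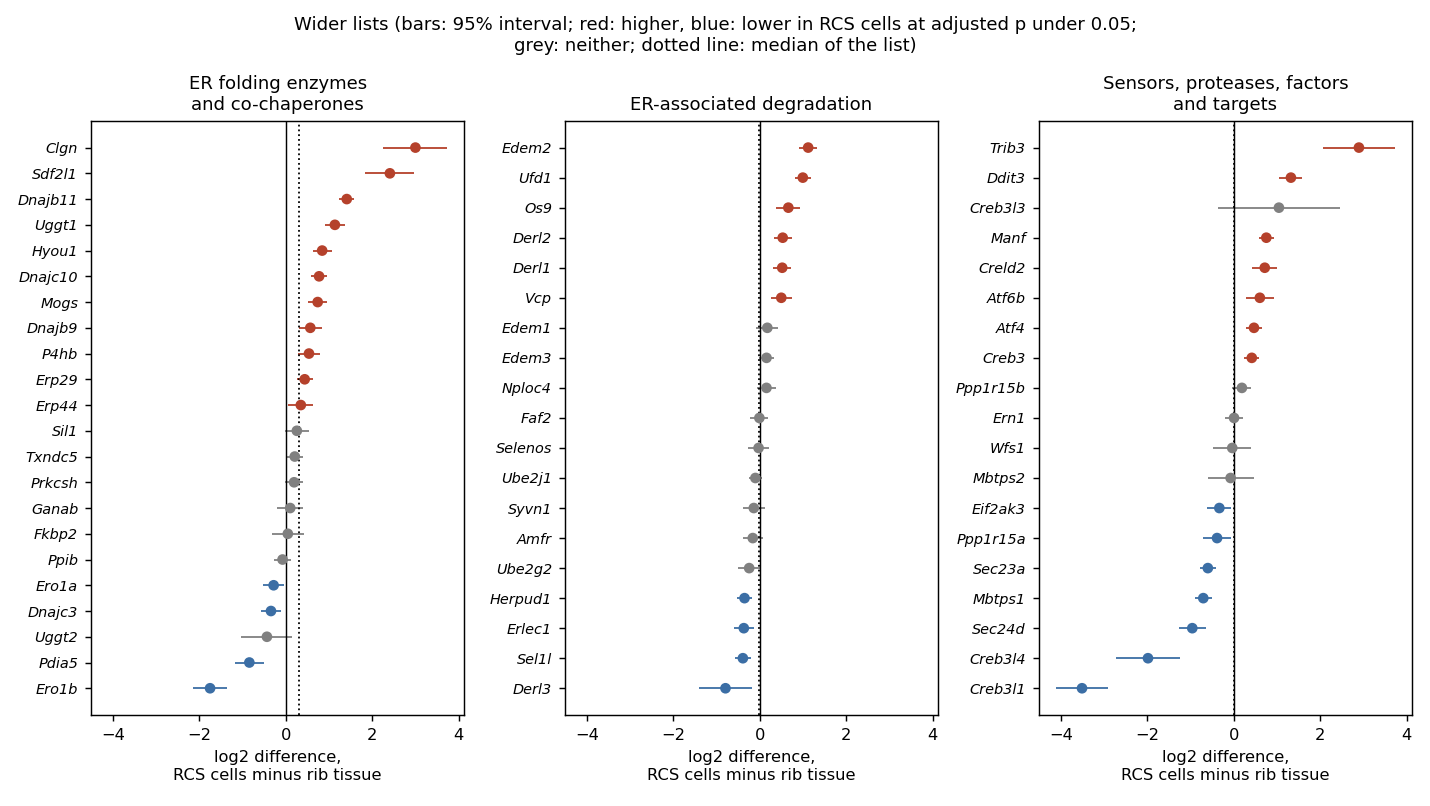
Log2 difference, RCS cells minus rib tissue (x axis), with 95% intervals for the genes (rows) of the folding, degradation and response lists, red where higher and blue where lower in RCS cells at a limma adjusted p under 0.05, and grey where neither. The folding list has 11 red and 4 blue genes, the degradation list 6 and 4, and the response list 7 and 7.

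The genes whose levels over the 6 libraries were most like those of Hspa5, by root mean square distance of mean-centred log2 values among 10720 genes with a symbol and a mean log2 value of at least 5, were the transporter gene Slc12a9 (0.05), the splicing factor gene Sf3a3 (0.06) and the kaptin gene KPTN (0.06). Those most like Creb3l2 were the polycomb gene Pcgf2 (0.03), Tmem214 (0.03) and the splicing factor gene Srsf6 (0.04). Symbols starting with LOC, RGD, Mir, Snor or rno-, and entries named only by an Ensembl identifier, were left out of the candidates.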

How the data were processed

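RNA of 3 RCS cell and 3 rib tissue libraries was sequenced, and each library's title gave its group and replicate number. The authors deposited log2 values in 1 table. The submitters' processing notes list CASAVA 1.8, DESeq and rn5 without saying what each did, with the aligner, counting rule and use of strand not given in the sources used here. The most frequent low values were multiples of 1 step per library, so values were read as log2 of reads divided by 1 factor per library, with 1 or less listed as 0, although the table's name carries a unit per length. Only 38.6% to 54.6% of values of up to 10 reads were within 0.01 of a whole read, so no count model was used.

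Tests used log2(normalized count + 1) in limma 3.58.1 (R 4.3.3, intensity trend, two-sided) on 16809 genes with at least 1 in at least 3 libraries. A gene was called where its Benjamini-Hochberg adjusted p was under 0.05, and the script was tested on simulated data. Fold changes on this scale understate changes of low genes. The 10 genes and the lists were chosen with earlier results of these data known. From each of the 3 wider lists, the 3 largest rises and 3 largest falls without overlap and with at least 50 normalized counts in the higher group were named, with 7 sensor, protease and factor genes always named. Clgn and other list genes outside this rule were named after their values were seen. Current or older symbols matched 125 of 129 list genes, and Entrez identifiers matched 2 more. The alternatives were 3 other scalings, 2 filters, a pseudocount of 0.1, array weights, no trend, a replicate block, summed rows and each library left out.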

Additional observations from a re-analysis of the deposited data

How the results depend on the processing

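Of the 16 alternatives, all kept the calls of Hspa5, Hsp90b1, Calr, Pdia4, Pdia6 and Atf6, with leave-one-out differences of 0.51 to 0.70 for Hspa5, 0.73 to 0.98 for Hsp90b1 and 0.95 to 1.04 for Pdia4. Leaving out single libraries gave 6 to 7 higher genes of the 10, 0.23 to 0.30 for Canx, -0.0039 to 0.17 for Creb3l2, 2 to 5 lower folding genes, -0.056 to 0.092 for Ern1 and -0.25 to 0.13 for Mbtps2. With quantile normalization, Pdia3 (0.33) and Creb3l2 (0.80) were called, 2 folding and 4 response genes were lower and 10 degradation genes higher, and Mbtps2 was at 0.70. With median scaling, Pdia3 (0.39) and Creb3l2 (0.37) were called, Xbp1 (-0.27) was not, 0 of the 10 genes, 2 folding and 0 degradation genes were lower, 10 degradation genes were higher, and Mbtps2 was at 0.22. Both counts of 0 are limma's, and at an unadjusted p under 0.05 they were also 0. The counts over all 16809 tested genes moved as well. They were 5536 higher and 7324 lower in the main fit, 8000 and 4924 with quantile normalization, and 7121 and 6248 with median scaling. Leaving out single libraries gave 4905 to 5540 higher and 6856 to 7306 lower. With cyclic loess, Creb3l2 (0.36) was called and Ern1 was at -0.13. Array weights put Mbtps2 at 0.054. Eif2ak3, Erp44, Ero1a and Ppp1r15a were not called with no filter or no trend, and Derl3 was not called with no filter. The cause of these shifts was not tested.

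The replicate numbers were not shown to pair the libraries, since deviations of equal numbers correlated at -0.08 to 0.06 and not every library correlated best with its own number. With the replicate block 5536 genes were higher and 7340 lower, 7 of the 10 genes higher and 1 lower, and of the named genes Creb3l3 alone changed its call (higher, limma adjusted p 0.0407). Depth was at least 554 reads per value for the 10 genes, and 3 libraries a group limit the precision.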
